A study of Homo sapiens with 24 samples.

Results

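The lysosome and autophagy genes followed here were 40 transcripts measured by sequencing the 3′ ends of RNA from RT112 and SCaBER, established cell lines of human bladder cancer. The rule that lists them is one of known function, and all 40 had a row among the 58721 genes of the count table. The list was drawn up with earlier results of these data known, which limits every comparison with all genes below. They comprised 9 lysosomal proteases, 9 other hydrolases, 3 proteins of lipid handling, 5 membrane proteins, 6 genes of the lysosomal proton pump, 4 ATG8 family genes, 3 further autophagy genes and the transcription factor TFEB. RT112, grown in RPMI medium with fetal bovine serum, stands for the luminal papillary (LumP) subtype. SCaBER, grown in DMEM with serum, stands for the basal/squamous (Ba/Sq) subtype, so each subtype was a single line. All cells had received siRNA by lipid transfection. The 6 treatments were siControl (number 2), siFOXA1 (number 1), siZBED2-1, siZBED2-2, and each ZBED2 siRNA combined with siFOXA1 (double knock-down), with 2 libraries per line and treatment and 24 in all. Replicate numbers are described as experiment batches, nothing says that the replicates were separate cultures, and p-values therefore measure the spread between these libraries. FOXA1 binds DNA through a forkhead domain and is known from luminal differentiation, and ZBED2 is a DNA-binding protein of the BED-type zinc finger family. The comparisons asked how the 40 genes moved when either factor, or both, were depleted.

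Lysosomes are acidic organelles in which hydrolases break down proteins, lipids and glycans that arrive by endocytosis and autophagy. A proton pump, the V-ATPase, holds the lumen acidic, and glycosylated proteins such as LAMP1 line the limiting membrane. In autophagy a membrane carrying lipid-bound ATG8 proteins closes around cargo and then fuses with the lysosome. TFEB binds the palindrome CACGTG, within a longer E-box motif, in promoters of many lysosome and autophagy genes, and phosphorylation by mTORC1 holds it in the cytoplasm.

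The palindrome was searched in RefSeq promoter windows of GRCh38.p14, from 250 bases before to 50 bases after an annotated start. A window was held for 31 of the 40 members, and 8 of these (25.8%) contained CACGTG, beside 8.77% of all 27305 genes with a window. The longer palindrome TCACGTGA, which contains the shorter, occurred in 5 members (16.1%) and in 1.18% of all genes. The forkhead letters TGTTTAC, read on both strands, occurred in CTSL alone (3.23% of members, 4.19% of genes), and TGTTTGC in CTSD and GABARAPL1 (6.45% of members, 4.76% of genes). For each of the 8 members the match nearest to its start is shown 5′ to 3′ on the strand of the gene, with the palindrome in capitals, because TFEB is a member itself. These are letters in a window, and binding was not measured.
CD63, chr12:55729172-55729201, minus strand, 180 bases before the start: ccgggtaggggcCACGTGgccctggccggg
ATP6V0D1, chr16:67481199-67481228, minus strand, 59 bases before the start: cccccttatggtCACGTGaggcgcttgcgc
CTSA, chr20:45891298-45891327, plus strand, 25 bases before the start: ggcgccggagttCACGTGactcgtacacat
LAMP1, chr13:113297226-113297255, plus strand, 1 base before the start: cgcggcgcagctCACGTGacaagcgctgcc
CTSD, chr11:1763957-1763986, minus strand, 47 bases before the start: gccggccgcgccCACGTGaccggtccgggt
GAA, chr17:80101538-80101567, plus strand, 31 bases before the start: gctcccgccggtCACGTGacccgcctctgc
MCOLN1, chr19:7522598-7522627, plus strand, 14 bases before the start: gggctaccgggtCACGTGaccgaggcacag
NEU1, chr6:31862930-31862959, minus strand, 126 bases before the start: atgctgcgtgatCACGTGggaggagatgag
Of these 8 members, CD63 and ATP6V0D1 were called higher with siFOXA1 in both lines. CTSA and LAMP1 passed the test in SCaBER and not in RT112, CTSD, GAA and MCOLN1 passed in neither, and NEU1 had too few counts. Among all members tested in both lines, 11 of 37 were called higher in both, beside 4.79% of all genes tested in both. Whether the palindrome goes with the response was not tested. The whole 250 bases before the start are shown for CD63 and ATP6V0D1, the members that held the palindrome and rose in both lines. In CD63 the palindrome begins 180 bases before the start, in 1 of 8 annotated start windows. In ATP6V0D1 it begins 59 bases before the start of its single window.
CD63, chr12:55729010-55729259, minus strand: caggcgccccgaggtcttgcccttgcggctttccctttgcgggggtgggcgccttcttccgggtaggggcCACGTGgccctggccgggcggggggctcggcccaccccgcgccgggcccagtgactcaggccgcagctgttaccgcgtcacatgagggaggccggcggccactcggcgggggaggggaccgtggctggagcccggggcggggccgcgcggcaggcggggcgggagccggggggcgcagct
ATP6V0D1, chr16:67481158-67481407, minus strand: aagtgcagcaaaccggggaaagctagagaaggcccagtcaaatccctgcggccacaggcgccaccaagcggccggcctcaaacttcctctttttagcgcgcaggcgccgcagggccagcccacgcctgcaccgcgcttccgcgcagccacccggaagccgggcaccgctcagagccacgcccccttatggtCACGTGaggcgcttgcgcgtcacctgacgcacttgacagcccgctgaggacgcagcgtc

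The libraries held 4425404 to 6119210 counts each. Levels are in CPM, the count relative to a library total scaled by TMM, and a gene without counts could be as high as 3 counts, or 0.474 to 0.679 CPM by library, by counting error alone. FOXA1, the target of siFOXA1, had 41.9 and 41.4 CPM in the RT112 siControl libraries and 6.87 and 9.57 under siFOXA1. SCaBER carried little of it, with 3.74 and 5.51 CPM under siControl and 0.819 and 1.36 under siFOXA1. ZBED2 in RT112 had 22.1 and 16.9 CPM under siControl, 2.38 and 0 under siZBED2-1 and 7.34 and 6.30 under siZBED2-2. The RT112 siFOXA1 libraries, at 5.46 and 1.52 CPM, were also lower in ZBED2. In SCaBER it had 18.9 in both libraries under siControl, 2.41 and 7.39 under siZBED2-1 and 8.74 and 15.8 under siZBED2-2, so the library labelled siZBED2-2 replicate 2 had lost little of its target. Basal and squamous markers summed to 341 to 357 CPM in RT112 siControl and 2528 to 2619 in SCaBER siControl, while luminal markers stood higher in RT112, with KRT20 and UPK3A at 0 in both. The 7 macrophage and leukocyte markers summed to at most 6.85 CPM in any library, with PTPRC, CD163 and AIF1 at 0 in the siControl libraries of both lines.

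After a filter on low counts 37 members were tested in RT112 and 38 in SCaBER. NEU1, a sialidase, had 4 counts in a single library and 0 in the others. ATP6V0C, the proteolipid ring subunit of the proton pump, had 0 counts in all 24 libraries, and GABARAP, an ATG8 protein, had 0 to 12. In the GENCODE release 44 annotation the last 500 bases of ATP6V0C and of GABARAP overlap an exon of another protein-coding gene on the same strand. Those of MCOLN1 overlap exons of 2 such genes, and how much of each stretch is covered was not measured. Reads that fall on more than 1 gene are left out by the counting of STAR, and its part in these low counts was not tested.

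With siFOXA1 most lysosome and autophagy genes had a positive estimate, 30 of 37 tested in RT112 and 30 of 38 in SCaBER. In RT112, 20 members rose and CTSL fell, so 21 (56.8%) were called at an adjusted p under 0.05 by edgeR's quasi-likelihood test, where 23.3% of the 13264 genes tested were called (11.3% higher and 11.9% lower). In SCaBER, 16 of 38 members rose and 0 fell (42.1%), where 17.8% of 13129 genes were called (8.71% higher and 9.12% lower). The median log2 fold change of the tested members was 0.68 in RT112 and 0.39 in SCaBER, against −0.01 and −0.02 over all genes. A group of 11 members rose in both lines, beside 4.79% of the 11763 genes tested in both: PSAP, NPC1, LIPA, CTSS, CD63, SCARB2, ATP6V0D1, ATP6AP1, ATP6V1B2, GABARAPL1 and GABARAPL2. None fell in both, where 5.49% of those genes did. Without SCaBER siControl replicate 1 the 11 became 7, and PSAP, NPC1, CD63 and GABARAPL2 kept both calls whichever library was left out. Both siFOXA1 libraries stood above both siControl libraries for 26 of 37 members in RT112 and for 25 of 38 in SCaBER, where 30.1% and 27.8% of all genes did. Both stood below for 4 members in each line, where 31.1% and 27.5% of all genes did. The 40 genes together took 0.501% to 0.583% of the counts of the RT112 siControl libraries and 0.709% to 0.846% of the siFOXA1 libraries. In SCaBER the shares were 0.470% to 0.492% and 0.618% to 0.643%. These shares weigh each gene by its counts. CD63 and PSAP, both called higher in both lines, held the most, with 156968 and 142762 counts over all libraries, ahead of CTSD with 69468.

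**Figure D1:**
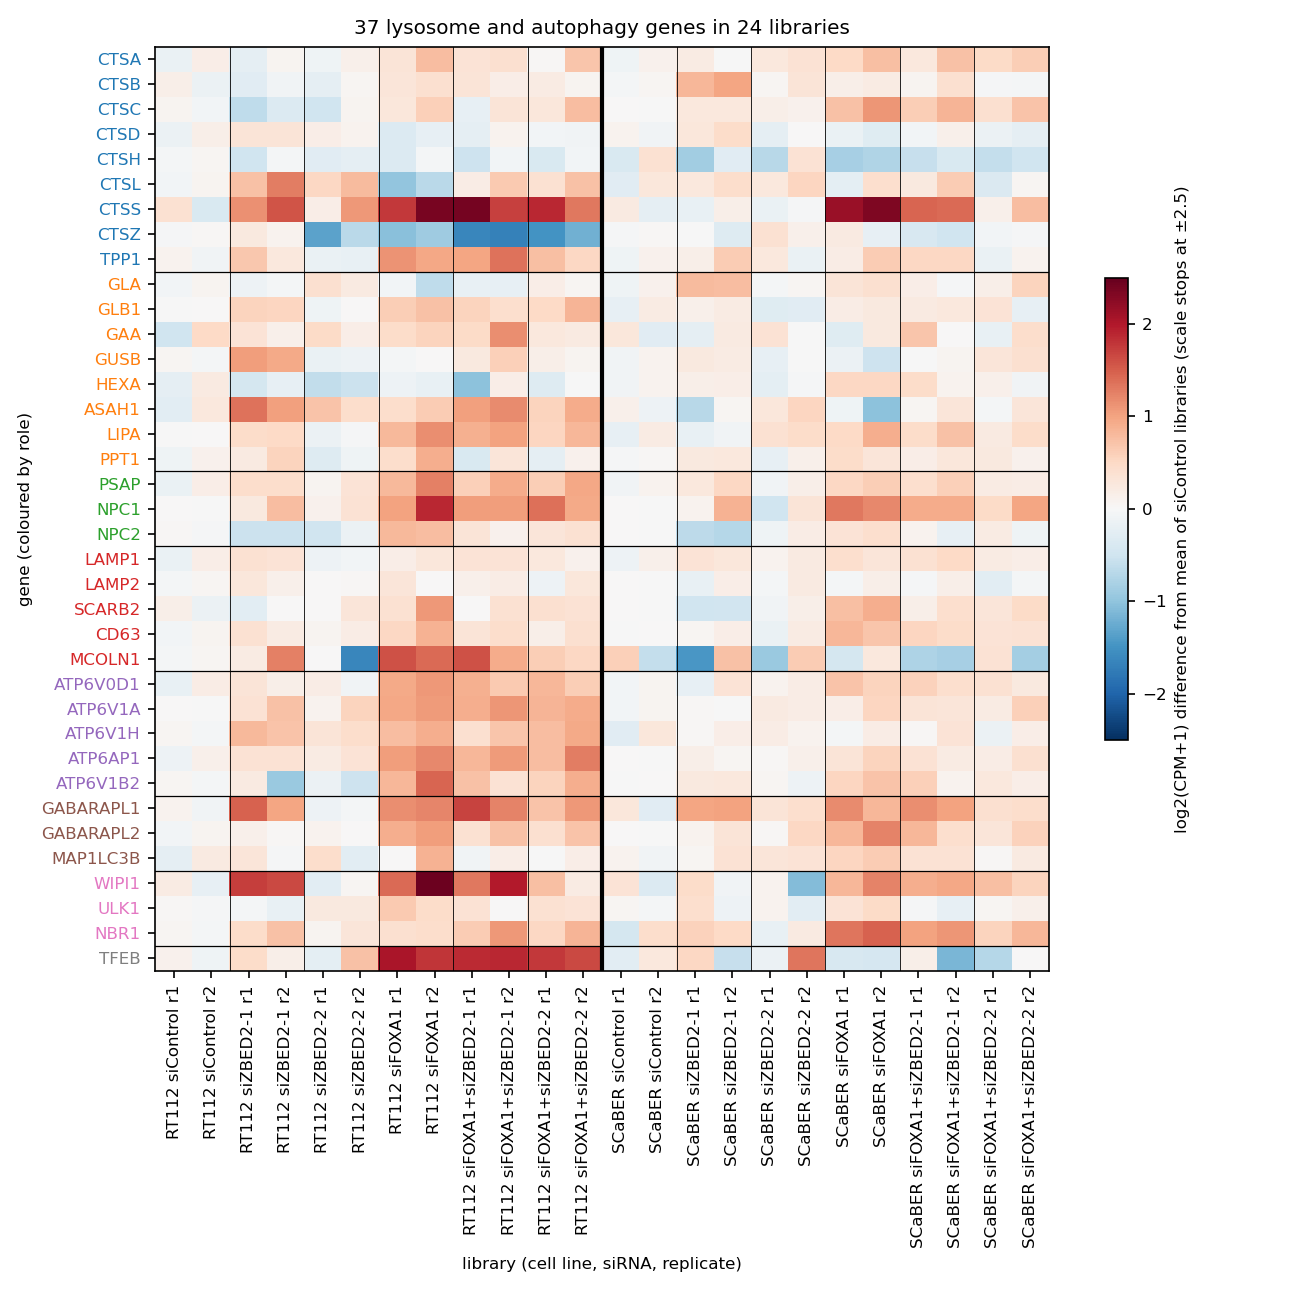
Heat map of the difference of log2(CPM + 1) from the mean of the siControl libraries of the same line, for 37 members (rows, grouped and coloured by role) in 24 libraries (columns, RT112 left and SCaBER right of the thick line). Red is higher and blue lower, with the colour scale ending at 2.5. The siFOXA1 columns and the double knock-down columns of RT112 are red across the proton pump rows and for TFEB, while TFEB stays near or under the control level in SCaBER siFOXA1.

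Of the 21 calls in RT112, 12 held in all 4 fits that left out a library, and the count was 12 without siControl replicate 2 and 14 without siFOXA1 replicate 2. Of the 16 calls in SCaBER 8 held in all 4, and the count was 10 without siControl replicate 1 or siFOXA1 replicate 2. On the deposited TPM values, tested with limma, 4 members were called in RT112 (TFEB and WIPI1 higher, CTSL and CTSZ lower) and 6 in SCaBER, all higher, where 12.6% and 10.5% of all genes were. In RT112 the share of members called on TPM was thus no larger than that of all genes. On library totals without TMM the members were 16 higher and 2 lower in RT112, where 22.5% of all genes were called. In SCaBER 13 were higher and 2 lower, where 17.7% of all genes were called. Of all genes so called, 38.6% in RT112 and 39.9% in SCaBER were higher. Mitochondrial transcripts moved with the treatment: they took 12.2% to 17.8% of counts in RT112 siControl and 21.4% to 22.7% in siFOXA1, and 9.73% to 10.7% and 12.5% to 12.9% in SCaBER. Fibroblast markers moved in SCaBER, from a sum of 17.6 to 21.7 CPM under siControl to 35.2 to 45.03 under siFOXA1, with 2 of 6 over 1 CPM and COL3A1 at 0 throughout. In RT112 their sum was 116 to 162 CPM under siControl and 108 to 113 under siFOXA1. The 9 luminal markers summed to less with siFOXA1, from a sum of 998 to 1053 CPM to 673 to 684 in RT112, and from 127 to 149.7 to 74.9 to 87.6 in SCaBER. The part of these shifts in the result was not tested. In bulk libraries fewer cells of a type and less RNA per cell cannot be told apart.

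**Figure D2:**
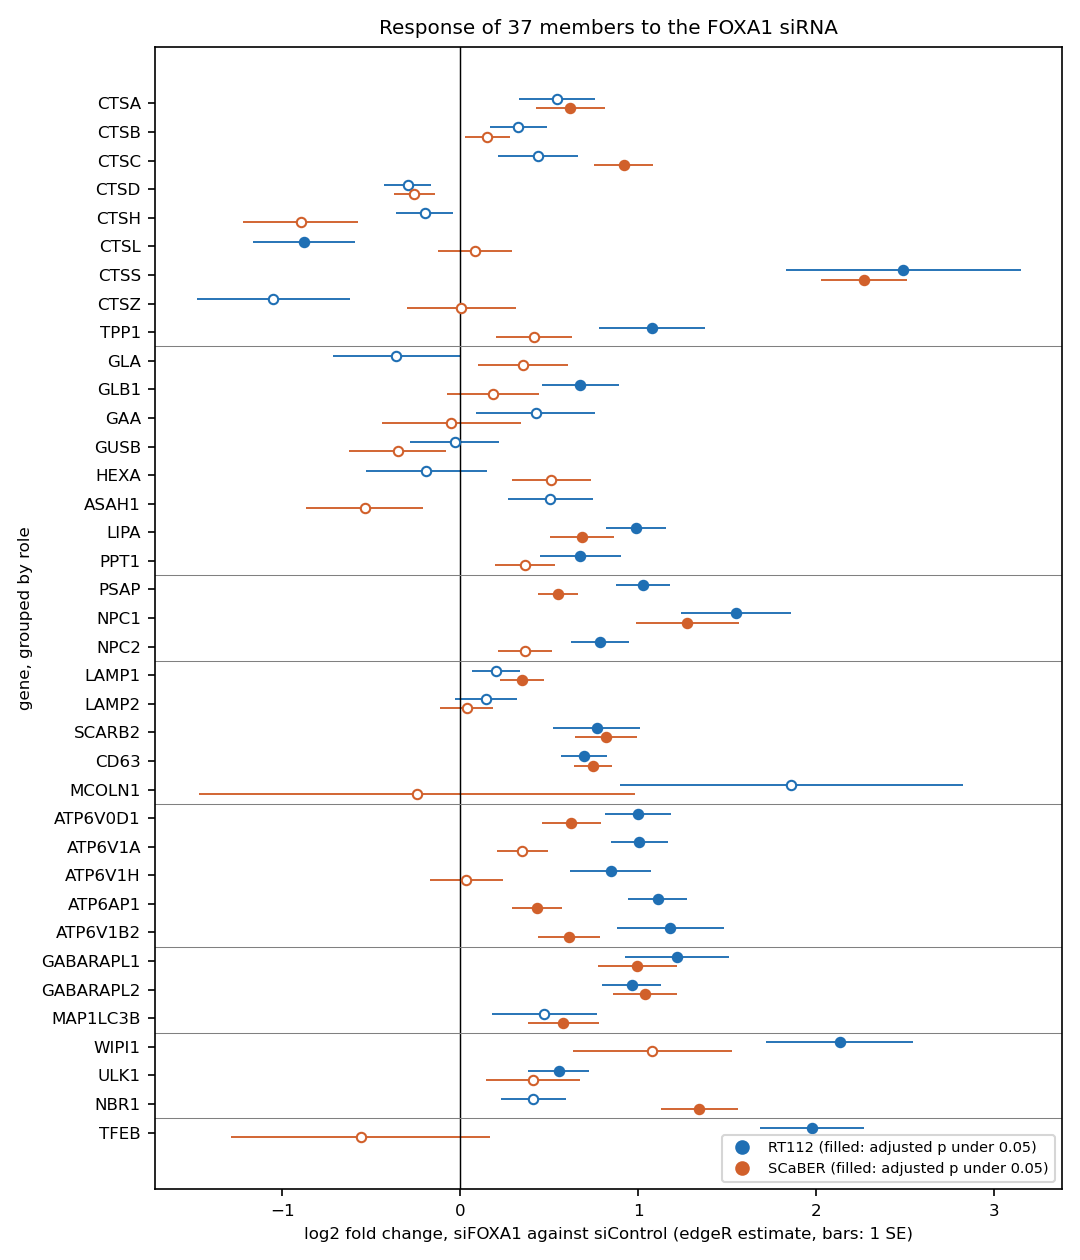
Log2 fold change of siFOXA1 against siControl (horizontal axis, edgeR estimate with 1 standard error, 2 libraries per group) for 37 members, RT112 in blue and SCaBER in orange. Filled points passed an adjusted p of 0.05. The filled points lie right of 0 except CTSL in RT112, which stands at −0.88.

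TFEB, the transcriptional regulator of the set, rose in RT112 and did not pass the test in SCaBER. TFEB (ENSG00000112561, chromosome 6, 41683978 to 41736223, RefSeq positions on GRCh38.p14 here and for the genes after it) had 17.0 and 14.7 CPM in RT112 siControl and 68.7 and 57.4 in siFOXA1. The log2 fold change, given throughout as the edgeR estimate ± its standard error, was 1.98 ± 0.29 (adjusted p 1.95e-05). The RT112 double knock-downs had 60.6 and 60.8 CPM with siZBED2-1 and 56.3 and 51.7 with siZBED2-2. All 6 RT112 libraries that received the FOXA1 siRNA thus stood above the 6 that did not, which ran up to 26.9 CPM. In SCaBER TFEB had 3.93 and 6.10 CPM under siControl and 3.48 and 3.39 under siFOXA1 (−0.56 ± 0.73, adjusted p 0.678). Those SCaBER values amount to few reads, and siZBED2-2 replicate 2 stood apart there at 13.9 CPM. Of 38 members TFEB alone passed the test of a difference in siFOXA1 response between the lines (−2.53 ± 0.69, adjusted p 0.0397, SCaBER minus RT112), where 2.58% of 14823 genes did (1.41% higher and 1.17% lower). The estimate stayed between −2.81 and −2.18 in the 8 fits that left out a library, and its adjusted p was over 0.05 in each of them. With the replicate number as a block 4 members were called, beside 4.03% of all genes: TFEB (−2.52) and the pump accessory gene ATP6AP1 (−0.68) were lower in SCaBER, and NBR1 (0.97) and CTSL (0.96) higher.

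**Figure D3:**
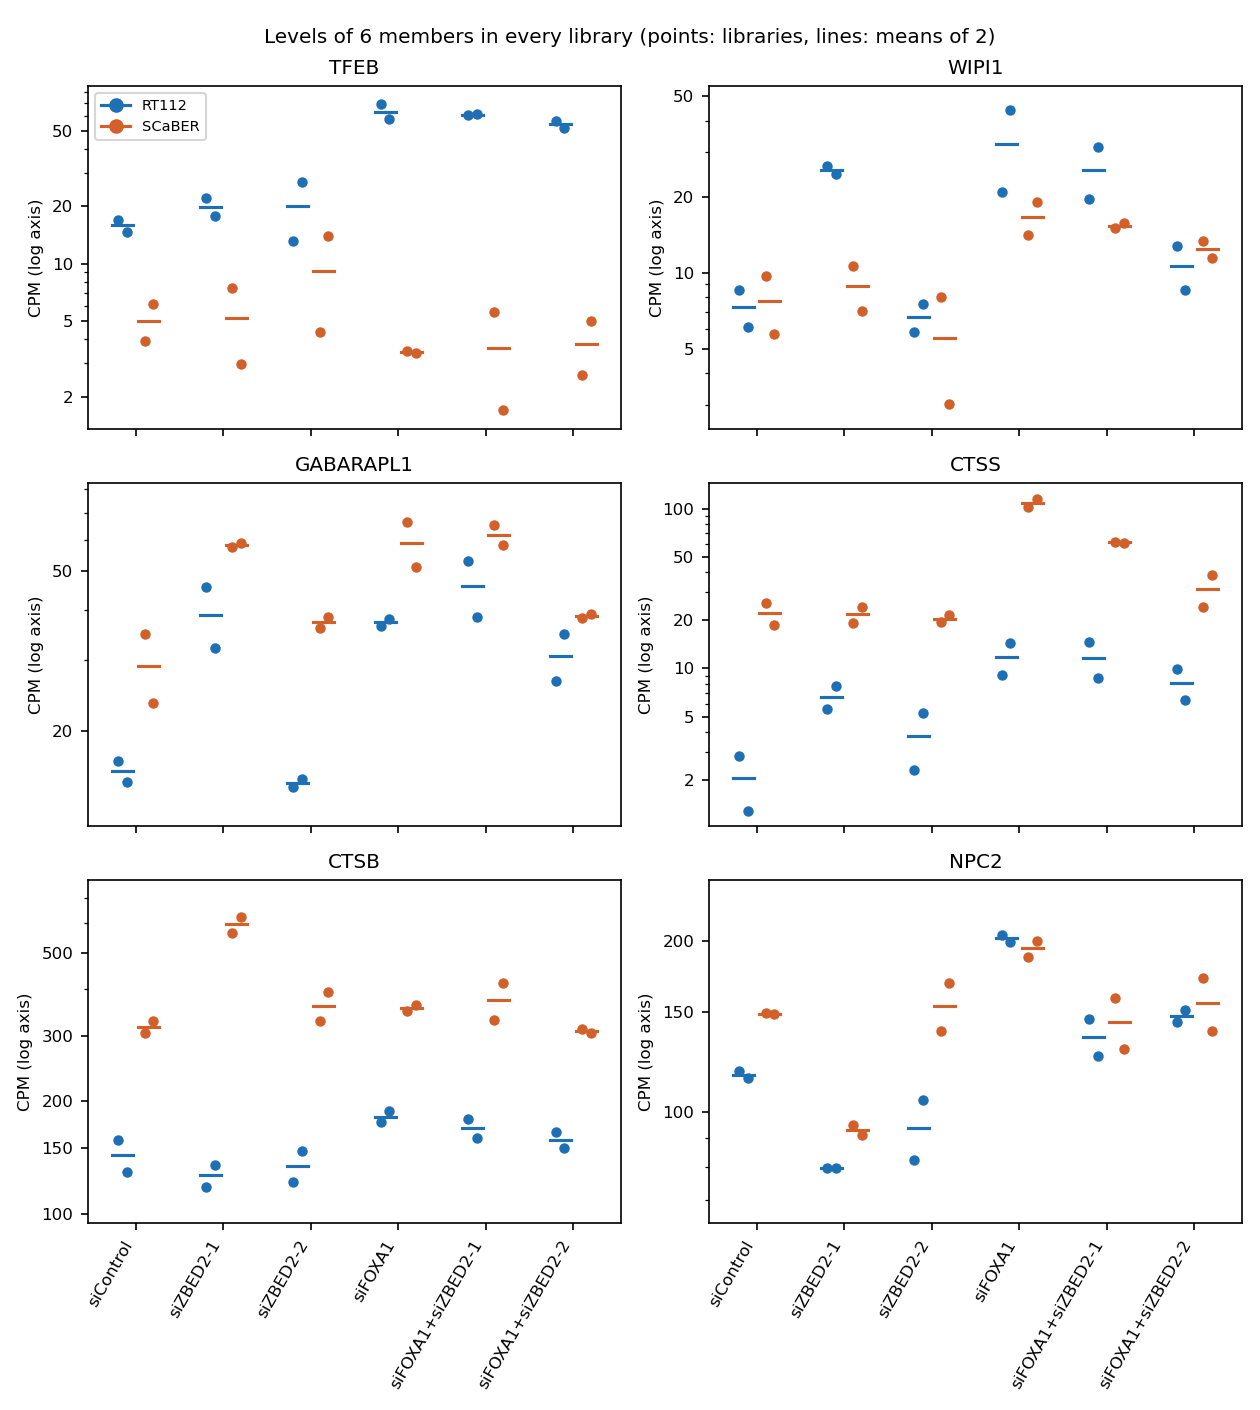
CPM (logarithmic axis) of 6 members in every library by treatment, RT112 in blue and SCaBER in orange, with a line at the mean of the 2 libraries. TFEB rises with the FOXA1 siRNA in RT112 to 51.7 to 68.7 CPM and stays at or under 5.56 CPM in the SCaBER libraries that received it. WIPI1 and GABARAPL1 also stand high in RT112 with siZBED2-1 alone.

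The proton pump genes rose together in RT112, where all 5 tested members passed, with log2 fold changes from 0.84 to 1.18 and a median of 1.01. ATP6AP1 (ENSG00000071553, chromosome X, 154428677 to 154436516), an accessory protein of the pump, had 99.6 and 118 CPM under siControl and 225 and 249.6 under siFOXA1 (1.11 ± 0.17, adjusted p 2.28e-05). ATP6V1A (ENSG00000114573, chromosome 3, 113747035 to 113812056), the catalytic subunit that hydrolyses ATP, went from 129.7 and 129 CPM to 255 and 271 (1.01 ± 0.16, adjusted p 5.16e-05). ATP6V1B2 (ENSG00000147416, chromosome 8, 20197381 to 20221696), the subunit that pairs with it in the catalytic head, had 34.7 and 32.2 CPM and then 60.6 and 92.9 (1.18 ± 0.30, adjusted p 0.00524). The groups did not overlap for any of these genes, although the siFOXA1 libraries were far apart for ATP6V1B2, whose call was lost without siControl replicate 2 or siFOXA1 replicate 2. ATP6V0D1, which joins the membrane ring to the central stalk, changed by 1.00 ± 0.18 (adjusted p 0.000252) and ATP6V1H, a regulatory subunit, by 0.84 ± 0.23 (adjusted p 0.00791). In SCaBER 3 of the 5 rose, by smaller estimates: ATP6V0D1 by 0.62, ATP6V1B2 by 0.61 and ATP6AP1 by 0.43. All 3 of these calls were lost without SCaBER siControl replicate 1. ATP6V1H (0.03 ± 0.21, adjusted p 0.943) and ATP6V1A (0.35 ± 0.15, adjusted p 0.0978) did not pass there, and the difference between the lines passed for none of the 5 in the fit without a block.

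Proteins of lipid handling rose in RT112, 3 of 3, and in SCaBER 2 of 3. PSAP (ENSG00000197746, chromosome 10, 71816298 to 71851251), the precursor of the saposins that help hydrolases reach sphingolipids, had 949 and 1189.8 CPM in RT112 siControl and 1861 and 2535 in siFOXA1 (1.03 ± 0.15, adjusted p 1.93e-05), and in SCaBER 613 and 685 and then 925 and 998 (0.55 ± 0.11, adjusted p 0.000517). NPC1 (ENSG00000141458, chromosome 18, 23506184 to 23586506), the membrane exporter of lysosomal cholesterol, had 18.3 and 18.0 CPM in RT112 siControl and 37.6 and 70.3 in siFOXA1 (1.55 ± 0.31, adjusted p 0.000528). In SCaBER its values were 20.4 and 19.9 and 51.6 and 47.3 (1.28 ± 0.29, adjusted p 0.00149). Neither gene overlapped between the groups in either line, and the 2 RT112 siFOXA1 libraries differed widely in NPC1. NPC2, the soluble partner that hands cholesterol to NPC1, rose in RT112 (0.79 ± 0.16, adjusted p 0.000751) and was at 0.37 ± 0.15 (adjusted p 0.0952) in SCaBER.

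Membrane proteins were split. CD63, a tetraspanin of late endosomes and lysosomes, rose in both lines, by 0.70 ± 0.13 (adjusted p 0.000252) for RT112 and 0.75 ± 0.11 (adjusted p 3.13e-06) for SCaBER. SCARB2, the receptor that carries glucocerebrosidase to the lysosome, rose in both lines (0.77 and 0.82), although its RT112 call was lost without siControl replicate 2 or siFOXA1 replicate 2. LAMP1 and LAMP2, the main proteins of the limiting membrane, had small estimates: the RT112 and SCaBER values were 0.20 ± 0.13 (adjusted p 0.311) and 0.35 ± 0.12 (adjusted p 0.0445) for LAMP1, and for LAMP2 0.15 ± 0.18 (adjusted p 0.611) and 0.04 ± 0.15 (adjusted p 0.915). LAMP1 thus passed in SCaBER, a call that held in 1 of 4 fits without a library. The calcium channel MCOLN1 had too few reads for a firm value (RT112 1.86 ± 0.96, adjusted p 0.176, SCaBER −0.24 ± 1.23, adjusted p 0.929).

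The hydrolases were mixed. Of 9 proteases 2 rose and 1 fell in RT112, and 3 rose in SCaBER. CTSS (ENSG00000163131, chromosome 1, 150730188 to 150765778), a cysteine protease known from antigen-presenting cells, had the largest estimate among the tested members in each line. In SCaBER it went from 25.8 and 18.7 CPM to 102 and 116 (2.27 ± 0.24, adjusted p 1.1e-08), and in RT112 from 2.84 and 1.29 to 9.09 and 14.4 (2.49 ± 0.66, adjusted p 0.00686). The siControl libraries of RT112 held 13 and 7 of its reads, and its call there was lost without siControl replicate 2 or siFOXA1 replicate 2. The 7 macrophage and leukocyte markers together had 4.14 to 5.43 CPM in SCaBER siControl and 5.66 to 5.73 in siFOXA1, with PTPRC, CD163 and AIF1 at 0 in both. TPP1, a tripeptidyl peptidase, rose in RT112 (1.08 ± 0.30, adjusted p 0.00959). CTSC, which activates serine proteases, and CTSA, which protects the sialidase and beta-galactosidase, rose in SCaBER (0.92 and 0.62).

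CTSL, a cysteine endopeptidase, was the single member that fell. In RT112 it had 26.2 and 28.9 CPM under siControl and 13.3 and 17.0 under siFOXA1 (−0.88 ± 0.29, adjusted p 0.0285), groups that did not overlap, but the call was lost in each of the 4 fits that left out a library. SCaBER gave 0.08 ± 0.21 (adjusted p 0.85). CTSZ was at −1.05 ± 0.43 (adjusted p 0.0802) in RT112, CTSH at −0.90 in SCaBER with both siFOXA1 libraries below siControl, and CTSD, the main aspartic protease, at −0.29 and −0.26, none of which passed. Among the other hydrolases LIPA, the acid lipase, rose in both lines, by 0.99 ± 0.17 (adjusted p 9.65e-05) for RT112 and 0.68 ± 0.18 (adjusted p 0.00543) for SCaBER. GLB1, a beta-galactosidase, and PPT1, a palmitoyl thioesterase, rose in RT112 (0.68 and 0.68), each call lost in 3 of 4 fits without a library. GLA, GAA, GUSB, HEXA and ASAH1, the glycosidases and acid ceramidase, passed in neither line, with estimates between −0.36 and 0.51 in RT112 and between −0.54 and 0.51 in SCaBER.

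Among the ATG8 genes, GABARAPL1 and GABARAPL2 rose in both lines. GABARAPL1 (ENSG00000139112, chromosome 12, 10212877 to 10223128) had 16.8 and 14.9 CPM in RT112 siControl and 36.6 and 38.1 in siFOXA1 (1.22 ± 0.29, adjusted p 0.00317), and in SCaBER 34.8 and 23.4 and then 66.3 and 51.4 (1.00 ± 0.22, adjusted p 0.00128). GABARAPL2 (ENSG00000034713, chromosome 16, 75566379 to 75577881) had 88.3 and 87.4 CPM in SCaBER siControl and 158 and 208 in siFOXA1 (1.04 ± 0.18, adjusted p 4.91e-05), and changed by 0.96 ± 0.17 (adjusted p 0.000105) in RT112. None of these groups overlapped, and without SCaBER siControl replicate 2 the SCaBER call of GABARAPL1 was lost. MAP1LC3B, the LC3 gene most used as an autophagosome mark, rose in SCaBER (0.58 ± 0.20, adjusted p 0.0366), a call lost without any 1 of the 4 libraries, and was at 0.47 ± 0.30 (adjusted p 0.275) in RT112. GABARAP passed the count filter only in SCaBER, at 0 to 2.22 CPM, where no change was detectable (−0.35 ± 1.76, adjusted p 0.93).

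The remaining autophagy genes differed by line in which of them passed. WIPI1 (ENSG00000070540, chromosome 17, 68421281 to 68457496), a phosphoinositide-binding protein of the forming autophagosome, had 8.52 and 6.07 CPM in RT112 siControl and 20.8 and 43.95 in siFOXA1 (2.13 ± 0.41, adjusted p 0.000408). In SCaBER it had 9.73 and 5.71 and then 14.1 and 19.0 (1.08 ± 0.45, adjusted p 0.0962), groups that did not overlap but did not pass. NBR1 (ENSG00000188554, chromosome 17, 43170409 to 43211688), a receptor that ties ubiquitinated cargo to ATG8 proteins, had 31.2 and 58.7 CPM in SCaBER siControl and 109 and 122 in siFOXA1 (1.34 ± 0.22, adjusted p 1.82e-05). Its RT112 libraries had 81.2 and 75.5 and then 104 and 106 (0.41 ± 0.18, adjusted p 0.113). Neither WIPI1 (−1.06 ± 0.63, adjusted p 0.456) nor NBR1 (0.94 ± 0.30, adjusted p 0.0964) passed the test of a line difference in that response. ULK1, the kinase that starts autophagy, had 89.98 and 86.0 CPM in RT112 siControl and 139 and 122 in siFOXA1 (0.55 ± 0.17, adjusted p 0.0195), a call that held in 1 of 4 fits without a library. In SCaBER it went from 27.9 and 25.8 to 34.4 and 37.8 (0.41 ± 0.26, adjusted p 0.327), again without overlap.

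A second pair of groups in each line gave the FOXA1 siRNA effect in libraries that share none with siFOXA1 and siControl: both double knock-downs against both ZBED2 siRNAs alone, 4 libraries against 4. In RT112, 17 of 37 members were called (15 higher, 2 lower), where 20.1% of all genes were called (9.88% higher, 10.2% lower). In SCaBER 8 of 38 were called (7 higher, 1 lower), where 10.1% of all genes were called (5.24% higher, 4.9% lower). Of the 21 members called with siFOXA1 in RT112, 20 had the same sign here (95.2%, against 95.3% of all genes so called) and 12 were called again in the same direction (57.1%, against 57.2%). Of the 16 called in SCaBER, 15 had the same sign (93.8%, against 93.9%) and 5 were called again (31.2%, against 39%). Neither the same-sign nor the called-again share of the members stood above that of all genes. TFEB in RT112 was at 1.51 ± 0.20 (adjusted p 6.13e-06), NPC2 at 0.71 ± 0.12 (adjusted p 6.82e-05) and ATP6AP1 at 0.68 ± 0.12 (adjusted p 0.000134). CTSZ, a cysteine carboxypeptidase, fell in RT112 (−1.22 ± 0.32, adjusted p 0.00686), and CTSC rose (0.65 ± 0.16, adjusted p 0.00484). In SCaBER CTSS (1.05 ± 0.17, adjusted p 5.55e-05), SCARB2 (0.57 ± 0.12, adjusted p 0.00185) and CD63 (0.36 ± 0.08, adjusted p 0.00144) rose, and CTSB fell (−0.45 ± 0.09, adjusted p 0.000693). The estimates were mostly smaller than on siControl, with a median over the members of 0.33 against 0.68 in RT112 and 0.14 against 0.39 in SCaBER.

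**Figure D4:**
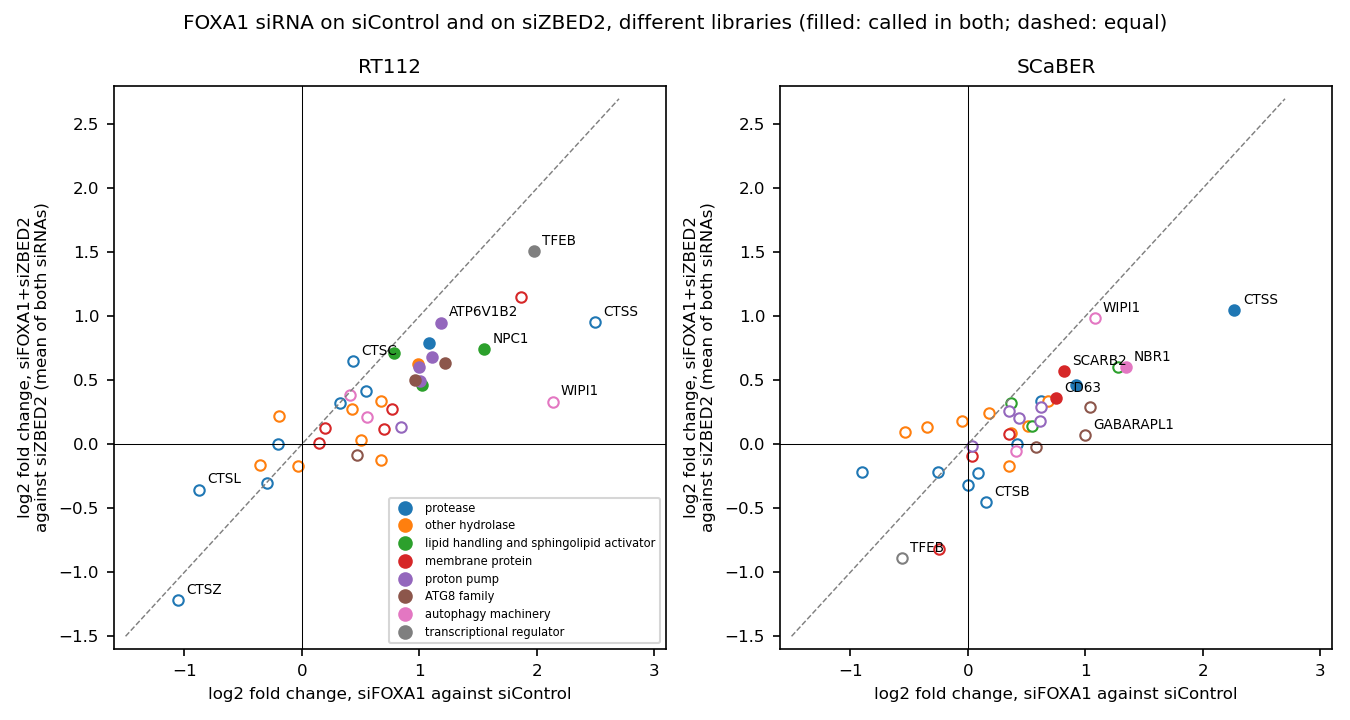
Log2 fold change of the FOXA1 siRNA on siZBED2 (vertical axis, mean of both ZBED2 siRNAs, 4 libraries against 4) against that on siControl (horizontal axis, 2 against 2) for 37 members in RT112 (left) and SCaBER (right), coloured by role. Filled points were called in both, and the dashed line marks equal values. Most points right of 0 lie under the dashed line and above 0. Of the points beyond 0.5 on the horizontal axis, PPT1 in RT112 and MAP1LC3B in SCaBER lie under 0 vertically.

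ZBED2 siRNA alone moved few members when both siRNAs were averaged: 1 of 37 in RT112, where 2.37% of all genes were called (1.33% higher, 1.04% lower), and 1 of 38 in SCaBER, where 1.83% of all genes were called (1.03% higher, 0.8% lower). The RT112 gene was ASAH1 (ENSG00000104763, chromosome 8, 18055992 to 18084961), the acid ceramidase, with 27.3 and 40.1 CPM under siControl, 87.0 and 68.1 under siZBED2-1 and 54.6 and 45.3 under siZBED2-2 (0.88 ± 0.21, adjusted p 0.0216). All 4 libraries stood above siControl, but the call held in 2 of 6 fits without a library. The SCaBER gene was CTSB (ENSG00000164733, chromosome 8, 11842524 to 11868087), a cysteine protease, with 305 and 329 CPM under siControl, 566 and 625 under siZBED2-1 and 328 and 394 under siZBED2-2 (0.54 ± 0.11, adjusted p 0.00447). The siZBED2-1 libraries carried most of that difference, siZBED2-2 replicate 1 lay within the control range, and the call was lost without either siControl library. With the replicate number as a block 3 members rose in RT112 (ASAH1, CTSL and ATP6V1A) and 2 in SCaBER (CTSB and GABARAPL1), where 3.66% and 2.56% of all genes were called.

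More members were called with siZBED2-1 than with siZBED2-2, a difference that was not itself tested. With siZBED2-1, 9 members were called in RT112 (8 higher, 1 lower), where 8.8% of all genes were called (4.35% higher, 4.45% lower), and 3 in SCaBER (2 higher, 1 lower), where 4.65% of all genes were called (2.19% higher, 2.45% lower). WIPI1 had 26.4 and 24.6 CPM in RT112 (1.80 ± 0.41, adjusted p 0.00543) against 8.52 and 6.07 in siControl. GABARAPL1 reached 45.8 and 32.1 in RT112 (1.30 ± 0.29, adjusted p 0.00501) and 57.4 and 58.7 in SCaBER (0.97 ± 0.22, adjusted p 0.00607), above all siControl libraries of the same line. GUSB, a beta-glucuronidase, had 63.6 and 59.4 CPM in RT112 against 31.01 and 29.3 under siControl (1.03 ± 0.25, adjusted p 0.00787). ASAH1 (1.20 ± 0.24, adjusted p 0.00135), CTSL (1.06), ATP6V1H (0.78), NBR1 (0.61) and ATP6V1A (0.56) made up the other rises in RT112. NPC2 fell in both lines: to 79.5 and 79.6 CPM in RT112 from 118 and 115 (−0.55 ± 0.16, adjusted p 0.0333), and to 94.8 and 91.0 in SCaBER from 149 in both libraries (−0.71 ± 0.15, adjusted p 0.0038). CTSB rose in SCaBER (0.89 ± 0.13, adjusted p 1.24e-05) and held in all 4 fits without a library. Basal and squamous markers moved with this siRNA in SCaBER, from a sum of 2528 to 2619 CPM under siControl to 4191 to 4220.5, and their part in these values was not tested. Of the 9 RT112 calls 0 held in every such fit, and their count was 1 to 4 without any 1 of the 4 libraries. NPC2 and GABARAPL1 lost their SCaBER calls without siZBED2-1 replicate 2, and GABARAPL1 also without siControl replicate 2. With the block 5 members were called in SCaBER, beside 6.02% of all genes, with PSAP (0.36) and CTSD (0.35) added.

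With siZBED2-2, 0 members were called by edgeR in either line, where 0.166% of all genes were called (0.136% higher, 0.0302% lower) in RT112, and 0.625% of all genes were called (0.427% higher, 0.198% lower) in SCaBER. At an unadjusted p under 0.05 there were 4 members in RT112 and 1 in SCaBER, and the share of all genes at that level was not counted. DESeq2 called 0 in either line, where it called 0.528% and 0.899% of all genes. GABARAPL1 had 14.5 and 15.2 CPM in RT112 and WIPI1 5.79 and 7.52, both near the siControl values. NPC2 had 82.1 and 105 in RT112 and 139 and 169 in SCaBER. ZBED2 itself was lower in the siZBED2-1 libraries than in the siZBED2-2 libraries of the same line.

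Adding a ZBED2 siRNA to siFOXA1 moved 2 members in each line, where 1.96% of all genes were called (1.32% higher, 0.641% lower) in RT112, and 3.84% of all genes were called (2.06% higher, 1.77% lower) in SCaBER. ZBED2 was already lower in the RT112 siFOXA1 libraries than in siControl, so the added siRNA had less of it left to deplete there. FOXA1 and ZBED2 levels in the double knock-downs are not given here, and both limits also hold for the RT112 interaction. CTSL in RT112 had 31.2 and 44.01 CPM with siZBED2-1 and 36.2 and 46.4 with siZBED2-2, against 13.3 and 17.0 with siFOXA1 alone (1.39 ± 0.26, adjusted p 0.00487). All 4 double knock-down libraries stood above both siFOXA1 libraries and above both siControl libraries, and the call was lost without siFOXA1 replicate 2, where the RT112 count was 0. NPC2 had 146 and 126 and 144 and 152 CPM against 205 and 199.7 (−0.51 ± 0.14, adjusted p 0.0483), lower in 4 of 4 libraries, a call held in 1 of 6 fits without a library. CTSS in SCaBER had 62.2 and 60.8 CPM and 24.1 and 38.4 against 102 and 116 (−1.31 ± 0.19, adjusted p 2.9e-05), lower in 4 of 4 and held in all 6 such fits. CD63 in SCaBER had 1355 and 1274 and 1170.1 and 1187 CPM against 1659 and 1497 (−0.33 ± 0.09, adjusted p 0.0291), lower in 4 of 4, a call lost in each of the 6. With the replicate block 4 members were called in RT112 (PPT1 −0.71 and CD63 −0.37 were added) and 5 in SCaBER (SCARB2 −0.49, GABARAPL2 −0.49 and NBR1 −0.53 were added), where 3.35% and 5.51% of all genes were.

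The interaction asked whether the FOXA1 siRNA acted differently with a ZBED2 siRNA present. In RT112 edgeR called 0 members, where 0.611% of all genes were called (0.309% higher, 0.302% lower). At an unadjusted p under 0.05 there were 9, all negative, and the share of all genes at that level was not counted. DESeq2 called 1, where it called 1.79% of all genes. The largest of these 9 estimates were WIPI1 (−1.80 ± 0.50, adjusted p 0.101), NPC1 (−0.81 ± 0.37, adjusted p 0.383) and PPT1 (−0.80 ± 0.28, adjusted p 0.225). In SCaBER 2 were called, where 2.29% of all genes were called (1.07% higher, 1.21% lower): CTSS (−1.22 ± 0.29, adjusted p 0.015) and CTSB (−0.60 ± 0.15, adjusted p 0.0267). The CTSS call held in 9 of 12 fits without a library and the CTSB call in 6 of 12. Neither held without siControl replicate 2, siFOXA1 replicate 2 or siZBED2-1 replicate 2, and CTSB alone was lost without siZBED2-2 replicate 2, the library that had kept most of its ZBED2. For CTSS the FOXA1 siRNA estimate was 2.27 on siControl and 1.05 on siZBED2, and for CTSB 0.15 and −0.45. The median interaction of the members was −0.34 in RT112 and −0.32 in SCaBER, against 0.01 over all genes in each. With the block 2 were called in RT112, PSAP (−0.57) and CD63 (−0.57). In SCaBER 7 were called with the block, all lower: CTSS, CTSB, PSAP, CD63, NBR1, GABARAPL1 (−0.93) and GABARAPL2 (−0.73). That fit called 1.6% of all genes in RT112 and 3.87% in SCaBER.

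The lines differed before any knock-down. Under siControl 15 of 38 members differed (39.5%), 9 higher and 6 lower in SCaBER, where 33.6% of 14823 genes differed (17.2% higher and 16.4% lower). CTSH (ENSG00000103811, chromosome 15, 78921058 to 78945046), an aminopeptidase known from lung surfactant processing, had 462 and 491 CPM in RT112 and 26.01 and 44.5 in SCaBER (−3.76 ± 0.25, adjusted p 4.85e-14, SCaBER minus RT112). ULK1 (ENSG00000177169, chromosome 12, 131894622 to 131923150) was also lower in SCaBER (−1.71 ± 0.21, adjusted p 3.28e-08), as were TFEB (−1.66 ± 0.48, adjusted p 0.00663), NBR1 (−0.80), PSAP (−0.72 ± 0.15, adjusted p 0.000196) and CD63 (−0.34). The 3 largest differences upward were proteases. CTSS (3.45 ± 0.44, adjusted p 1.09e-07), TPP1 (1.64 ± 0.26, adjusted p 4.39e-06), CTSL (1.58 ± 0.26, adjusted p 8.19e-06) and CTSB (1.14 ± 0.14, adjusted p 1.03e-07) were higher in SCaBER. TPP1 had 17.7 and 15.5 CPM in RT112 and 47.5 and 55.7 in SCaBER, CTSL 26.2 and 28.9 and 66.0 and 99.1, and CTSB 158 and 129.6 and 305 and 329, all without overlap. ATP6V1B2 had 34.7 and 32.2 CPM in RT112 and 75.2 and 76.6 in SCaBER (1.18 ± 0.26, adjusted p 0.000481). Besides it, ATP6V1H (0.94), GABARAPL1 (0.88), LAMP2 (0.68) and ATP6V0D1 (0.47) were higher too. None of the 8 tested hydrolases outside the proteases passed. On TPM with limma 12 members were higher and 2 lower, where 27% of all genes were called and 66.1% of those were higher. Without SCaBER siControl replicate 1 the count was 10, with TFEB, NBR1 and GABARAPL1 among those lost, and line, medium and subtype cannot be told apart here.

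**Figure D5:**
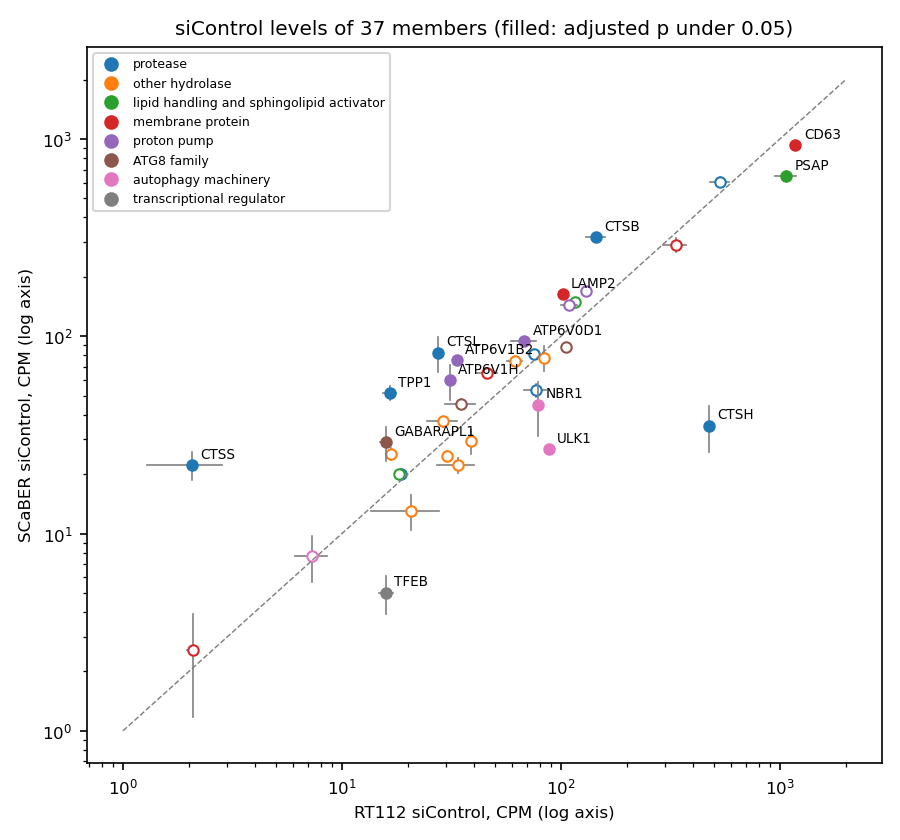
CPM of 37 members under siControl in RT112 (horizontal) and SCaBER (vertical), both on logarithmic axes, coloured by role. Points are means of 2 libraries, grey lines span the 2 libraries, the dashed line marks equal levels, and filled points differ at an adjusted p under 0.05. CTSH lies farthest under the line and CTSS farthest above it.

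The other genes of the pathway, a list of 112 also chosen with earlier results known, were mostly higher where they were called. With siFOXA1, 39 of 107 tested (36.4%) were called in RT112 (36 higher, 3 lower) and 24 of 106 (22.6%) in SCaBER (23 higher, 1 lower), beside 23.3% and 17.8% of all genes, with medians of 0.45 and 0.29. In RT112 the lead genes were the sialic acid exporter SLC17A5 (3.46 ± 0.22, adjusted p 2.15e-11), the cargo receptor SQSTM1 (1.98 ± 0.16, adjusted p 1.55e-09), the pump subunit ATP6V1D (1.64 ± 0.19, adjusted p 5.13e-07) and IDS, an iduronate sulfatase (1.73 ± 0.22, adjusted p 2.49e-06). Among those that fell were the hydrolases SIAE (−2.22 ± 0.65, adjusted p 0.0136) and ARSB. ARSB had 3.49 and 6.07 CPM in RT112 siControl and 0.202 and 0 in siFOXA1, at the limit of detection. In SCaBER ATP6V1D (1.63 ± 0.13, adjusted p 2.52e-11), the cargo receptor OPTN (1.23 ± 0.15, adjusted p 9.61e-08), SQSTM1 (1.09 ± 0.13, adjusted p 2e-07) and the late endosome GTPase RAB7A (1.05 ± 0.13, adjusted p 2.46e-07) led, and LAMTOR4 fell (−0.88 ± 0.28, adjusted p 0.0217). Of 11 further proton pump genes 6 rose in RT112 and 4 in SCaBER, and 0 fell. Of 9 genes that sort enzymes to the lysosome 5 rose in RT112 and 2 in SCaBER. Of 17 genes of TFEB and mTORC1 control 4 rose in RT112, among them FLCN (1.94 ± 0.27, adjusted p 6.61e-06), which acts with the Rag GTPases upstream of TFEB. Of 26 tested hydrolases 4 rose and 3 fell in RT112 (26.9% called), near the 23.3% of all genes. Responses differed between the lines for SLC17A5 (−2.29 ± 0.35, adjusted p 0.000127), SQSTM1 (−0.89 ± 0.22, adjusted p 0.0218), ATP6V0A1 (−1.20) and IGF2R (−0.81), each lower in SCaBER. These were 4 of 109 tested (3.67%), where 2.58% of all genes were called. With both ZBED2 siRNAs averaged, against the same siControl libraries, 7 of 107 tested (6.54%) were called in RT112, beside 2.37% of all genes. In SCaBER 2 of 106 (1.89%) were, beside 1.83%, and every call was higher. RAB7A (0.99 in RT112, 0.69 in SCaBER) and ATP6V1D (0.73, 0.93) were called in each line, and SLC17A5, IDS and OPTN in RT112. Their rises were thus not particular to the FOXA1 siRNA. SQSTM1, and OPTN in SCaBER, were not called.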

How the data were processed

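RNA of siRNA-transfected RT112 and SCaBER cells was sequenced from the 3′ end in 24 libraries. The authors trimmed single-end reads with TrimGalore 0.6.2 within raw-qc 2.1.0 (minimum quality 20, minimum length 10) and aligned them with STAR 2.6.1a to hg38 with GENCODE release 29, per the deposited settings. The deposited gene counts are raw reads per gene. The deposited TPM values are those reads scaled by the authors for gene length and library total. Rows cover 58721 genes, of which 34121 had no count, and 0 columns belonged to other samples. Members and gene lists were chosen with earlier results of these data known.

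Counts were normalised by TMM and fitted with edgeR 4.0.16 (R 4.3.3), one quasi-likelihood model per line on its 12 libraries and one on all 24 for comparisons between lines. Genes passed filterByExpr at a minimum count of 10 and a minimum total of 15, and p-values were adjusted by Benjamini-Hochberg over all genes tested. A gene was called at an adjusted p under 0.05, in 16 comparisons. Replicate libraries varied with a common biological coefficient of 25.8% (RT112) and 21.6% (SCaBER). Alternatives were RLE factors, library size alone, no filter, a replicate block, DESeq2 1.42.0, limma 3.58.1 on log2(TPM + 1), the contrast groups only, and each library left out. The scripts were tested on simulated counts. No pair among the 276 library pairs agreed within sampling noise (lowest chi-square per gene 6.24).

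Replicate numbers pair libraries because the labels make them experiment batches. Deviations of same-numbered libraries correlated weakly, with a mean r of 0.0286 over 15 group pairs in RT112 and 0.0206 in SCaBER, and 0 pairs over 0.1.

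Values per library are given for members called with siFOXA1 at an absolute log2 fold change of at least 1 (up to 8 per line by smallest p), for those with the smallest p in the other comparisons (up to 4 per line, 6 for the line difference in response, 8 under siControl), and for TFEB and ULK1. Other pathway genes are given as counts, with up to 4 named per line and direction. Those named with ZBED2 siRNA alone were the lead genes of siFOXA1, chosen after their values were seen. WIPI1, NPC1 and PPT1 in the RT112 interaction, and the members named for the FOXA1 siRNA on siZBED2, were chosen after their values were seen.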

Additional observations from a re-analysis of the deposited data

Results flagged for a closer look

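In SCaBER the response to the FOXA1 siRNA differed with a ZBED2 siRNA present for CTSS, where the interaction was −1.22 on the log2 scale, and for CTSB, where it was −0.60. These were 2 of 38 members tested (5.26%), where 2.29% of all genes were called. Neither call held in every fit that left out a library. Between the lines TFEB alone of 38 members (2.63%, beside 2.58% of all genes) differed in siFOXA1 response, by −2.53 (log2, SCaBER minus RT112). Each passed the edgeR test of the difference itself, and the TFEB call was lost in each of the 8 fits that left out a library.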

How the results depend on the processing

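Over 100 values of named members and 1230 alternative values, 977 kept their direction and side of the threshold, 253 kept the direction but lost the call, and 0 reversed. The 100 values were those called in the main fit, with TFEB and ULK1 under siFOXA1 whether called or not. Other values not called there were left out, so this tally could show lost calls but hardly any gained ones. The loss was uneven: with limma on TPM 71 of the 100 values lost the call, while RLE factors and DESeq2 lost 0. The counts of called members moved by more than 1.5 times as follows. With limma on TPM the siFOXA1 count was 4 in RT112 and 6 in SCaBER, where 12.6% and 10.5% of all genes were called. The FOXA1 siRNA on siZBED2 count was 3 and 2 (10.6% and 3.65% of all genes). The siZBED2 count was 0 and 0 (0.105% and 0.509%), and the siZBED2-1 count 0 and 1 (1.83% and 1.46%). The double knock-down count was 0 and 1 (0.0263% and 1.05%). The SCaBER interaction and the line difference in response had 0 (0.119% and 1.14%). On library size alone the double knock-down count was 1 in each line, where 1.79% (RT112) and 3.72% (SCaBER) of all genes were called. With no filter the counts in RT112 were 2 for siZBED2, 4 for the double knock-down and 3 for the interaction, and SCaBER had 4 for the double knock-down and the line difference in response 2. DESeq2 called 2 for siZBED2, 4 for the double knock-down and 1 for the interaction in RT112, where 3.35%, 3.18% and 1.79% of all genes were called. In SCaBER it called 2 for siZBED2, 6 for siZBED2-1, 4 for the double knock-down and 5 for the interaction. The shares of all genes there were 2.47%, 5.7%, 4.78% and 3.53%. For the line difference in response it called 3, where 5.7% of all genes were called. With the contrast groups only, RT112 siZBED2 had 2. The share of all genes was not counted with no filter, with the contrast groups only or with a library left out. The cause of these shifts was not tested.

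With the replicate block the counts were 3 for siZBED2, 4 for the double knock-down and 2 for the interaction in RT112, and 2 for siZBED2, 5 for siZBED2-1, 5 for the double knock-down and 7 for the interaction in SCaBER, with 4 for the line difference in response. Of the named calls the block lost CD63 and ATP6V0D1 in the siControl line difference and no other.

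Leaving out each library gave 12 to 20 calls for siFOXA1 in RT112 and 10 to 14 in SCaBER, 13 to 16 and 6 to 8 for the FOXA1 siRNA on siZBED2, 0 to 1 in each line for siZBED2, 1 to 4 and 1 to 3 for siZBED2-1, 0 to 4 and 1 to 2 for the double knock-down, and 0 to 3 and 0 to 4 for the interaction. The line difference ranged from 10 to 15 under siControl and from 0 to 1 in the response.

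The scaling moved the median of all genes with siFOXA1 from −0.01 to −0.11 on library size alone and to −0.26 on TPM in RT112, and from −0.02 to −0.09 and −0.12 in SCaBER. Of all genes called, 48.6% were higher in RT112 by TMM, 38.6% on library size alone and 17.9% on TPM, and in SCaBER 48.9%, 39.9% and 31.6%. Depth limits MCOLN1, at 0 to 41 counts per library, and GABARAP, at 0 to 12.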
